A study of Homo sapiens with 9 samples.

Results

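Cells of the SKBR3 line that received either of 2 siRNAs against PVRL4 were taken as 1 group of 6 libraries and set against 3 control libraries. The replicate number at the end of each library's name entered as a block. All 9 libraries of the study were used, and 11158 of the 20812 genes in the deposited table were tested, namely those with a mean of at least 1 RPM (the reads of a gene scaled to the total of its library) over the 9 libraries. SKBR3 is an established human breast cancer line with an amplified ERBB2 gene. It was transfected at 10 nM with an ON-TARGETplus non-targeting siRNA (Horizon Discovery), PVRL4 siRNA #1 or PVRL4 siRNA #2 (both from Integrated DNA Technologies), here control, siRNA 1 and siRNA 2, in Lipofectamine RNAiMAX. RNA was measured after 48 h with 3 libraries per siRNA, and no untransfected cells are among the samples. In a pooled comparison the target and the supplier of the siRNA cannot be told apart, and no siRNA sequence was given in the sources used. Whether replicates came from separate cultures is not in the labels either, and all p-values therefore refer to the spread between libraries, possibly a technical one.

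The product of PVRL4 (now NECTIN4) is nectin-4. Nectins are immunoglobulin-like adhesion molecules that bind one another across neighbouring cells and are tied to the actin cytoskeleton by afadin at adherens junctions. Nectin-4 is abundant on many breast and bladder carcinomas, where an antibody-drug conjugate binds it. A siRNA directs Argonaute proteins to cleave the matching messenger RNA. Each sequence can also act on transcripts of its own, and double-stranded RNA can set off interferon signalling, so several sequences are often used against a single target.

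PVRL4 was lower in each of the 6 PVRL4 siRNA libraries than in each of the 3 control libraries. Its level was 9.93, 7.86 and 11.6 RPM in control replicates 1, 2 and 3, 5.99, 4.36 and 4.67 RPM with siRNA 1, and 3.39, 2.91 and 2.58 RPM with siRNA 2. The highest PVRL4 siRNA library, siRNA 1 replicate 1, lay under the lowest control library, and the 3 libraries of siRNA 2 lay under those of siRNA 1. The reads behind these levels numbered 83 to 118 in a control library and 27 to 62 in a PVRL4 siRNA library. The pooled mean was 3.98 ± 1.27 RPM (SD, n = 6) against 9.81 ± 1.89 RPM (SD, n = 3) in control, so that 40.6% of the control level remained. On the log2(RPM + 1) scale, used for every log2 change given here, the pooled change was -1.14 (95% confidence interval -1.61 to -0.67; limma unadjusted p = 0.000225). Adjusted over all 11158 genes, limma's p was 0.647. An exact two-sided permutation test of the 3 control against the 6 pooled libraries gave p = 0.0119, the smallest that 84 arrangements allow, and p = 0.0370, the smallest for 27 arrangements, when libraries were exchanged within replicate numbers. Taken apart, PVRL4 fell by 0.84 with siRNA 1 and by 1.44 with siRNA 2 (limma adjusted p = 0.0132 and 0.000161), and the siRNAs themselves differed by -0.60 (adjusted p = 0.0383).

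With limma and edgeR no gene passed the threshold of 0.05 in the pooled comparison, while DESeq2 called 15. limma called 0 genes higher (0%) and 0 lower (0%), edgeR called 0 in each direction, and DESeq2 called 8 higher and 7 lower. At an unadjusted p under 0.05, limma had 250 genes higher (2.24% of those tested) and 332 lower (2.98%), 5.22% together, and edgeR had 330 and 290. The lowest adjusted p of the pooled fit was 0.647, shared by 6 genes: PVRL4, SENP5, SNORA7B, H19, TGFBR1 and FAM49A. DESeq2 called PVRL4, IFIT1, MX1, OAS2, SENP5, SNORA7B, GRHPR, APOL3, TDG, CASP14, H19, HMOX1, PSMB9, HNRNPA0 and FAM49A, all listed here without selection. Between the 6 pooled and the 3 control libraries there was no overlap for 116 genes that were higher (1.04%) and 136 that were lower (1.22%).

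The pooled fit treats the 6 libraries as alike, and they were not. A contrast of siRNA 2 against siRNA 1, the single one of these contrasts without control libraries, called 1041 genes (9.33%). In the pooled fit such differences count as spread between libraries, and its residual SD had a median of 0.170 over genes, against 0.143 in a fit with 3 groups. That second fit, with the same block, gave the change of each siRNA and the mean of both changes, which equals the pooled change in size and differs in its error. By this mean of both siRNA effects, limma called 55 genes higher (0.493%) and 69 lower (0.618%). Both effects share the 3 control libraries, so their common direction is not independent evidence. Of the 55 higher genes, 45 differed between the siRNAs, with the larger effect under siRNA 1 in 41. Of the 69 lower genes, 46 differed, with the larger effect under siRNA 2 in 35. The siRNA difference missed the threshold for 10 of the higher and 23 of the lower genes, which does not show that the siRNAs acted alike on them.

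**Figure D1:**
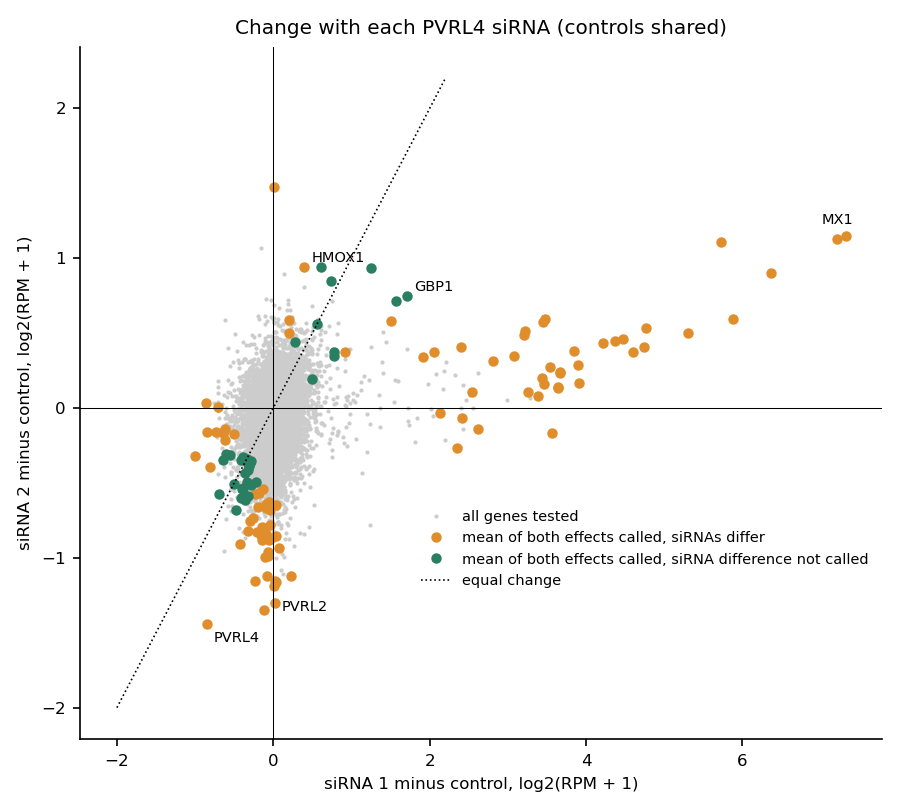
Log2 change against control with siRNA 1 (horizontal) and siRNA 2 (vertical) for the 11158 genes tested, on the log2(RPM + 1) scale, with genes called by the mean of both effects in colour and the same 3 control libraries in both axes. Of the 55 higher genes 41 differ between the siRNAs with the larger effect under siRNA 1 and spread to the right, and of the 69 lower genes 35 differ with the larger effect under siRNA 2 and lie below 0 on the vertical axis.

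The calls of the mean of both effects depended on single libraries. Without control replicate 1 limma called 7 genes higher and 2 lower, and without control replicate 3 it called 20 and 11. With each of the 9 libraries left out in turn, 7 higher genes and 1 lower gene kept their call throughout. The lower gene was PVRL4, with adjusted p of 0.000286 to 0.0492. The higher genes were the interferon-stimulated IFIT1, OAS2, IRF9, IFI6, MX1, OAS1 and OAS3. IFIT1, OAS2 and MX1 had control means under 1 RPM and were tested only because PVRL4 siRNA libraries were higher. All 8 differed between the siRNAs. For each of the 8 the highest limma adjusted p with a library left out was 0.0492, just under the threshold. Over 23 alternative settings PVRL4 was called in 21, and IFIT1, MX1 and OAS1 in 20 each. Without a filter on low values, or without a trend, limma called 0 genes in each direction. Without the replicate block it called 12 higher and 5 lower. In the text that follows, rose and fell refer to this mean contrast or to a single siRNA where named, never to the pooled fit. Over all genes tested 0.493% rose and 0.618% fell by the mean contrast, the shares to set beside the counts of each list.

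**Figure D2:**
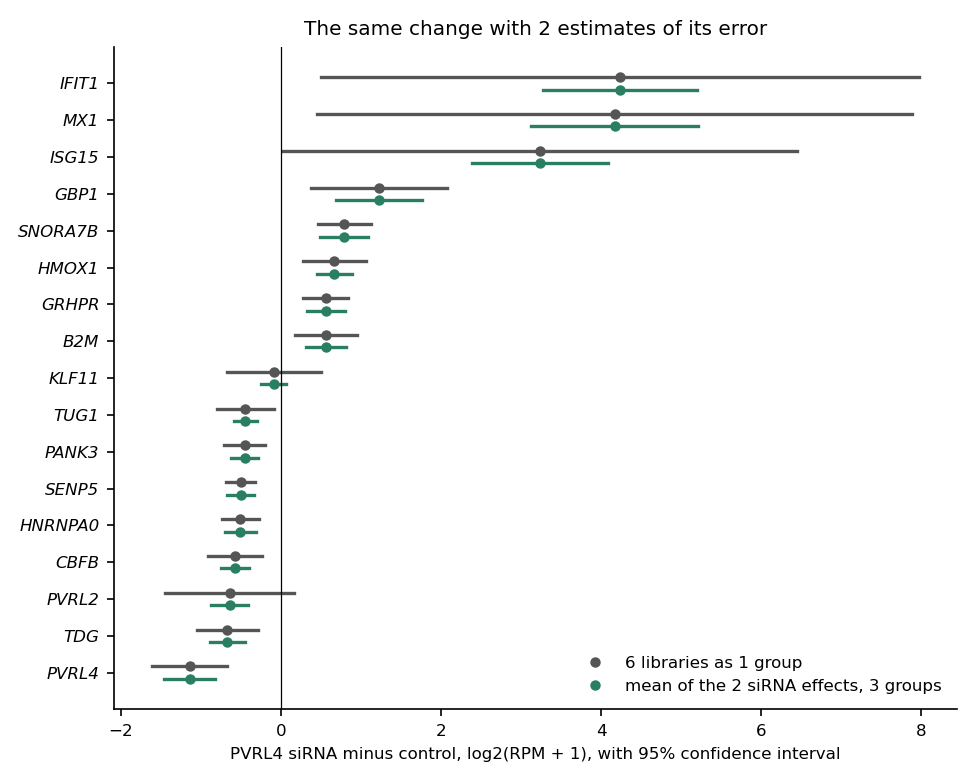
Change of 17 named genes, PVRL4 siRNA minus control on the log2(RPM + 1) scale, as points with 95% confidence intervals from the fit of 6 libraries as 1 group (grey) and from the mean of both siRNA effects in the fit with 3 groups (green). The points coincide, and the grey intervals are the wider ones, most of all for IFIT1 (0.50 to 7.97 against 3.27 to 5.198) and MX1.

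The largest pooled changes were those of interferon-stimulated genes. Type I interferon signals through JAK kinases to STAT proteins, which join IRF9 in a complex that binds a short promoter element with a repeated GAAA core. The core GAAANNGAAA was searched on both strands of RefSeq promoters (GRCh38.p14, 250 bases before to 50 after the start, 300 bases in all), where overlapping matches were each counted. It was present in 24 of the 33 interferon effector promoters found (39 such genes were tested), in 3 of 7 promoters of double-stranded RNA sensors (11 tested) and in 7 of 13 of MHC class I and peptide supply genes (18 tested). Of all 27305 promoters 3.65% held it, and of the 8328 promoters of tested genes 2.77%. Among the genes that fell by the mean of both effects it was in 1 of 50 promoters, and the share among those that rose was not taken. The lists were written by known gene function, with earlier results of these data known, so their shares are no result about the siRNAs. A match is a description of these letters and no evidence of binding. The windows of 80 bases below, from RefSeq, lie wholly before the start site and are given 5′ to 3′ on the gene's strand. They belong to 6 genes with a match that are described in the next paragraphs. The promoters of OAS1 and PSMB9, also described there, held 0 matches. Capitals mark matches to the core or its reverse complement.
IFIT1 (chr10:89392477-89392556, plus strand): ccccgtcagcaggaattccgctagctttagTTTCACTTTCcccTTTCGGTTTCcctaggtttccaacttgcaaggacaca
ISG15 (chr1:1013354-1013433, plus strand): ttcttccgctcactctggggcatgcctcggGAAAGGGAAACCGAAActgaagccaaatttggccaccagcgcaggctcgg
BST2 (chr19:17405711-17405790, minus strand): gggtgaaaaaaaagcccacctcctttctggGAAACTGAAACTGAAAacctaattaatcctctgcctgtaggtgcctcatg
GBP1 (chr1:89065286-89065365, minus strand): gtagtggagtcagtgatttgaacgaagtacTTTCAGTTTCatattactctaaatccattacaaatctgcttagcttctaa
B2M (chr15:44711343-44711422, plus strand): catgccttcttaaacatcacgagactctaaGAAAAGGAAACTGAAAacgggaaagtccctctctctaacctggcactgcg
TAP1 (chr6:32853789-32853868, minus strand): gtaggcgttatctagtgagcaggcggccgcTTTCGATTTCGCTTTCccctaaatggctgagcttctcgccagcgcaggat

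The interferon-stimulated genes separated the siRNA 1 libraries from the siRNA 2 libraries within the pooled group. IFIT1, which binds foreign RNA, stood at 0, 0.095 and 0.197 RPM in control, at 587, 46.1 and 192 with siRNA 1 and at 0.599, 0.291 and 5.92 with siRNA 2. The groups do not overlap, but control holds at most 2 reads of IFIT1 and siRNA 2 replicate 2 only 3, so that a fold change has no firm base. Its pooled change of 4.23 (interval 0.50 to 7.97; limma adjusted p = 0.898) combines 7.32 with siRNA 1 and 1.15 with siRNA 2 (adjusted p = 7.87e-07 and 0.288). By the mean of both effects IFIT1 rose (adjusted p = 0.000391). MX1, a GTPase that blocks viruses, stood at 0.382, 0.284 and 0.394 RPM in control, 703, 49.8 and 222 with siRNA 1, and 0.599, 0.678 and 8.68 with siRNA 2. Here too every PVRL4 siRNA library lay above every control library. OAS1, an oligoadenylate synthetase that senses double-stranded RNA, was at 2.48, 3.98 and 2.46 RPM in control, 524, 66.7 and 249 with siRNA 1, and 4.29, 6.40 and 14.4 with siRNA 2. Within siRNA 2 replicate 3 held the most of IFIT1, MX1 and OAS1, and within siRNA 1 replicate 1 did.

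Another group of interferon genes, DHX58 excepted, had libraries of siRNA 2 within the control range. The ubiquitin-like modifier ISG15 was at 2.39, 2.65 and 3.06 RPM in control, 2.496, 3.10 and 10.97 with siRNA 2, and 624, 64.2 and 253 with siRNA 1. BST2, the tether that holds budding virus at the cell surface, was at 24.8, 30.8 and 42.6 RPM in control, 28.9, 42.5 and 90.3 with siRNA 2, and 590, 165 and 471 with siRNA 1. IRF9, the DNA-binding subunit of the interferon transcription factor, was at 3.91, 4.74 and 5.62 RPM in control, 4.59, 4.94 and 8.30 with siRNA 2, and 125, 40.8 and 72.3 with siRNA 1. For all 3 the siRNA 2 group overlapped control and the siRNA 1 group lay far above. ISG15, BST2 and IRF9 rose by the mean of both effects (limma adjusted p = 0.000619, 0.000727 and 0.000455), and ISG15 and BST2 lost the call without control replicate 1 (0.0614 and 0.0627). OAS2 (pooled change 3.63), IFIT2 (2.90), and the sensor genes DHX58 (2.04) and EIF2AK2 (1.13) rose as well by that contrast. OAS2, IFIT2 and DHX58 had control means of 0.224, 0.0947 and 0.224 RPM, and IFIT2 and DHX58 stood at 0.797 and 0.843 RPM with siRNA 2, so both passed the filter of 1 RPM only through siRNA 1 (86.6 and 15.9 RPM) and could only be higher. Every siRNA 2 library of DHX58 (0.699, 1.07 and 0.763 RPM) lay above control (0.095, 0.379 and 0.197 RPM). OAS2 kept its call with each library left out. EIF2AK2 and DHX58 lost it without control replicate 1 (0.118 and 0.186). IFIT2 lost it without control replicate 1, control replicate 3 or siRNA 2 replicate 2 (0.381, 0.167 and 0.0575). IRF1, a transcription factor of the same pathway, had a pooled change of 0.65 and was not called (adjusted p = 0.190 by the mean contrast).

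Of 42 interferon effectors written in the list 39 were tested, and 22 of these had a control mean under 1 RPM, so that they passed the filter only because PVRL4 siRNA libraries were higher. Their direction was fixed by that filter. Of the other 17, with a control mean of at least 1 RPM, 10 rose and 0 fell by the mean of both effects. All 17 had a positive pooled change and 15 differed between the siRNAs. Of all 11033 genes with such a control mean, 34 rose, 69 fell, 5288 had a positive pooled change and 995 differed between the siRNAs. The median change of these 17 was 1.17 pooled, 2.35 with siRNA 1 and 0.11 with siRNA 2, beside medians over all genes of -0.0047, 0.014 and -0.022. Over all 39, which include the genes low in control, 25 rose and the medians were 1.56, 2.99 and 0.20. The pooled comparison had 10 of the 39 at an unadjusted p under 0.05, and for 7 the groups did not overlap, beside 2.24% and 1.04% of all genes. Both counts are over all 39 and include genes low in control, whose direction the filter fixed. They lie above these shares, but because of that filter they cannot be set against them as evidence of an excess. The pooled median of the 39 became 2.54 when 0.1 replaced 1 as the pseudocount, and edgeR and DESeq2 gave 4.19 and 3.86. Summed over the list, control libraries held 859, 998 and 795 RPM, siRNA 1 libraries 8216, 2140 and 4207 RPM, and siRNA 2 libraries 1004, 1128 and 790 RPM. The sum therefore overlapped between siRNA 2 and control and not between siRNA 1 and control. Of 11 tested sensors of double-stranded RNA 3 had a control mean under 1 RPM. Of the other 8, 5 rose and 0 fell, beside 34 and 69 of the 11033 genes with a control mean of at least 1 RPM. The medians of these 8 were 1.27 pooled, 2.16 with siRNA 1 and 0.28 with siRNA 2. The 18 tested interferon receptors, JAK, STAT and IRF genes had a pooled median of 0.020. Of these 18, 3 rose, IRF9 and IRF7 among them, and 1 fell, beside 0.493% and 0.618% of all genes. IRF7, a transcription factor of interferon genes named after its values were seen, lost its call without control replicate 1 or 3, siRNA 1 replicate 3 or siRNA 2 replicate 2 (limma adjusted p = 0.0580 to 0.443). The one that fell, JAK1, was at 147 ± 10.3 RPM in control, 81.2 ± 7.52 RPM with siRNA 1 and 151.1 ± 4.25 RPM with siRNA 2 (SD, n = 3 each), and lost its call without control replicate 1 (0.358) or 3 (0.0675). In all, 39 of the 55 higher genes belong to these 3 lists or to the MHC list. These lists hold 39, 11, 18 and 18 of the 11158 genes tested, and were chosen with earlier results of these data known. Of the 55 higher genes 21 had a control mean under 1 RPM, against 125 of all 11158 genes. Those 21 could only be higher.

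Of the 19 lists, the MHC class I and peptide supply genes had the highest share of members with every PVRL4 siRNA library above control. These genes load peptides onto the class I molecule: B2M is its light chain, TAP1 part of the peptide transporter, and PSMB9, PSME1 and PSME2 parts of the immunoproteasome and its activator. B2M was at 477, 579 and 542 RPM in control, 1193, 710 and 880 with siRNA 1, and 636, 713 and 683 with siRNA 2. All 6 PVRL4 siRNA libraries lay above all 3 controls, with siRNA 1 replicate 1 the highest. The pooled change was 0.56 (interval 0.18 to 0.94), from 0.77 with siRNA 1 and 0.35 with siRNA 2, a difference of -0.42 with an interval of -0.71 to -0.13 (limma adjusted p = 0.0635). TAP1 was at 48.5, 52.9 and 41.3 RPM in control, 274, 75.4 and 120.1 with siRNA 1, and 79.3, 67.4 and 67.5 with siRNA 2. PSMB9 was at 1.43, 1.23 and 0.986 RPM in control, 10.7, 2.52 and 5.79 with siRNA 1, and 2.596, 3.30 and 2.10 with siRNA 2. Both genes, too, had no overlap with control. B2M, TAP1 and PSMB9 rose by the mean of both effects (limma adjusted p = 0.0276, 0.0161 and 0.0321).

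For the MHC genes the calls were easily lost. That of B2M was lost when control replicate 1 (0.490) or 3 (0.145), siRNA 1 replicate 3 (0.0631) or siRNA 2 replicate 2 (0.0927) was left out. TAP1 lost it without the same control libraries (0.409 and 0.127) or siRNA 2 replicate 2 (0.0623), and PSMB9 without any 1 control library, siRNA 1 replicate 3 or siRNA 2 replicate 2 (0.0660 to 0.438). PSME1 (pooled change 0.32) and PSME2 (0.54) had no overlap either and were not called (adjusted p = 0.0960 and 0.0659 by the mean contrast). Of the 18 tested MHC genes 7 had no overlap in the higher direction (B2M, TAP1, PSMB9, PSME1, PSME2, HLA-E and ERAP1) and 0 in the lower, beside 1.04% and 1.22% of all genes. At an unadjusted p under 0.05 the pooled comparison had 9 higher and 0 lower, beside 2.24% and 2.98% of all genes. By the mean of both effects 3 rose and 0 fell, beside 0.493% and 0.618%. The median change was 0.37 pooled, 0.54 with siRNA 1 and 0.23 with siRNA 2. Of the 18, 2 had a control mean under 1 RPM, and the filter fixed their direction. Of the other 16, 3 rose, 0 fell and 13 had a positive pooled change. The medians of these 16 were 0.36 pooled, 0.54 with siRNA 1 and 0.23 with siRNA 2. GBP1, an interferon-induced GTPase outside the MHC list, showed the same order, with 4.49, 6.82 and 5.82 RPM in control, 37.9, 11.9 and 19.2 with siRNA 1 and 8.79, 14.4 and 8.21 with siRNA 2. GBP1 rose by 1.23 (adjusted p = 0.0247), a call lost without any 1 control library, siRNA 1 replicate 3 or siRNA 2 replicate 2 (0.0522 to 0.476). HLA genes have near-identical relatives, so reads of their amplicons may be shared.

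**Figure D3:**
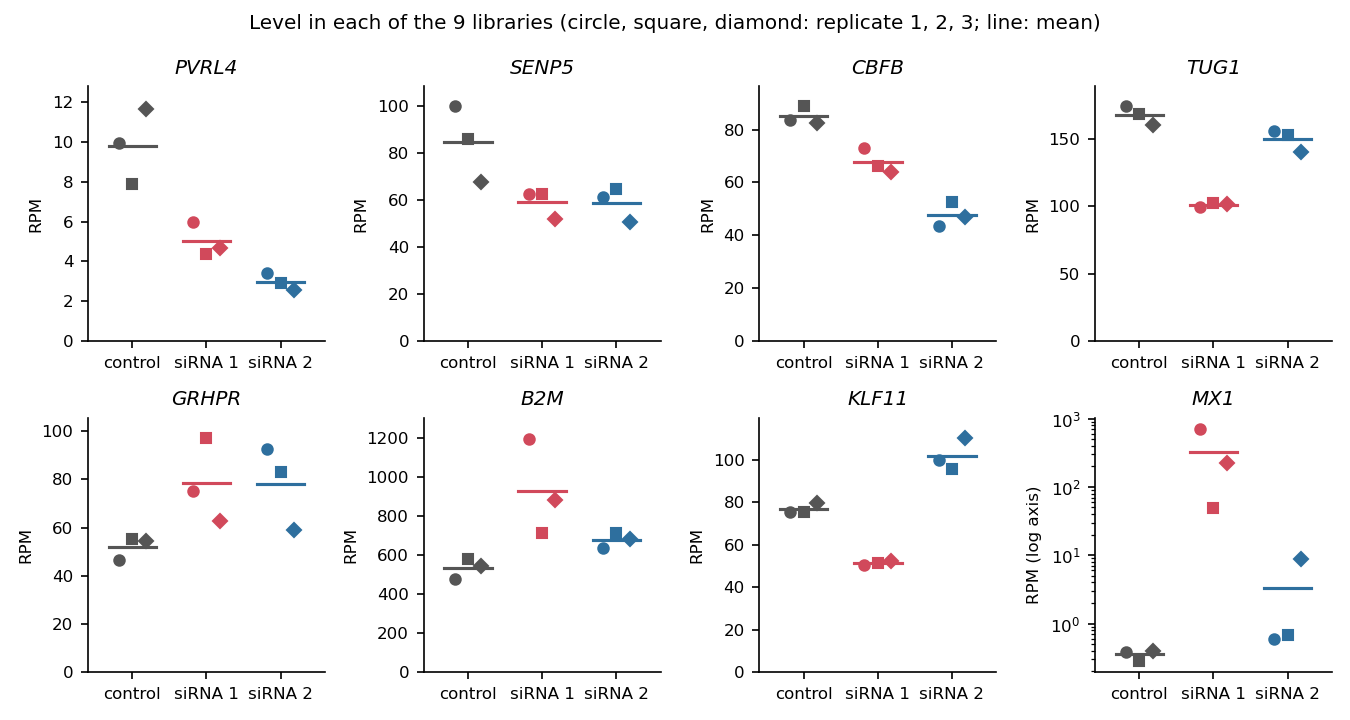
RPM of 8 genes in each of the 9 libraries, by siRNA, with replicates 1, 2 and 3 as circle, square and diamond and the group mean as a line, on linear axes from 0 except for MX1 (log axis). PVRL4, SENP5, CBFB and TUG1 are lower and GRHPR, B2M and MX1 higher in all 6 PVRL4 siRNA libraries, while KLF11 is lower with siRNA 1 and higher with siRNA 2.

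SENP5 had the lowest unadjusted p of all genes in the pooled comparison. This protease, which removes SUMO from proteins, was at 99.7, 85.6 and 67.6 RPM in control, 62.3, 62.6 and 51.8 with siRNA 1, and 61.1, 64.4 and 50.4 with siRNA 2. The groups did not overlap, replicate 3 was the lowest library in every group, and the 2 siRNAs differed by -0.0093 (interval -0.21 to 0.19). The pooled change was -0.50 (interval -0.68 to -0.32; limma unadjusted p = 7.73e-05, adjusted p = 0.647), and SENP5 kept 69.7% of its control level. By the mean of both effects it fell (adjusted p = 0.00449), a call lost without control replicate 1 (0.185), the highest control library. DESeq2 called it in the pooled comparison (adjusted p = 0.0150).

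HNRNPA0, an RNA-binding protein of messenger RNA, and PANK3, a kinase at the start of coenzyme A synthesis, were also lower in all 6 libraries. HNRNPA0 was at 58.0, 59.2 and 53.4 RPM in control, 41.3, 49.6 and 37.2 with siRNA 1, and 34.5, 38.4 and 38.8 with siRNA 2. PANK3 was at 243, 192 and 204 RPM in control, 136, 134 and 148 with siRNA 1, and 170, 181 and 163 with siRNA 2. For PANK3 the siRNA 1 libraries were the lowest, for HNRNPA0 the siRNA 2 libraries with siRNA 1 replicate 3 among them, and neither difference between the siRNAs passed (limma adjusted p = 0.0537 and 0.303). HNRNPA0 fell by 0.51 and PANK3 by 0.46 (adjusted p = 0.00942 and 0.00893). HNRNPA0 lost its call without control replicate 1 (0.215) or 3 (0.0835), and PANK3 without the same libraries (0.267 and 0.0636).

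Another 4 genes named by the same rule fell, with no overlap and without a called siRNA difference, by 0.44 to 0.49. They were FAM49A (CYRIA), a RAC1-binding protein, WWC3, a WW-domain protein, RSPRY1, a RING-finger protein, and the unnamed DKFZP586I1420. RSPRY1 ranged from 27.3 to 30.7 RPM in control and from 17.8 to 23.9 RPM in the pooled libraries. Their limma adjusted p by the mean of both effects lay between 0.0101 (FAM49A) and 0.0417 (DKFZP586I1420). FAM49A lost its call without any 1 control library (0.0534 to 0.186). WWC3 and RSPRY1 lost theirs without any 1 control library, siRNA 1 replicate 1 or 3, or siRNA 2 replicate 2 (0.0506 to 0.387). DKFZP586I1420 lost its call with each library left out except siRNA 1 replicate 1 (0.0573 to 0.366).

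For 3 other genes that were lower in all 6 libraries the siRNAs differed in size. CBFB, the partner subunit of RUNX transcription factors, was at 83.6, 88.8 and 82.6 RPM in control, 73.1, 66.3 and 63.9 with siRNA 1, and 43.4, 52.6 and 47.0 with siRNA 2. The 3 groups formed separate bands in that order. TUG1, a long noncoding RNA, had the other order, with 175, 169 and 160 RPM in control, 99.2, 102 and 102 with siRNA 1 and 156, 153 and 141 with siRNA 2. Its siRNA 2 libraries lay just under the control range, and its siRNA 1 libraries far below. TDG, a DNA glycosylase that removes mismatched thymine, was at 167, 169 and 188 RPM in control, 115, 158 and 120 with siRNA 1, and 74.6, 128 and 82.7 with siRNA 2. Replicate 2 was the highest TDG library with each PVRL4 siRNA, and still below control. The siRNA difference was -0.50 for CBFB, 0.56 for TUG1 and -0.48 for TDG (limma adjusted p = 0.00318, 0.000295 and 0.0180). All 3 fell by the mean of both effects (adjusted p = 0.00182, 0.00364 and 0.00369). Each call was lost without control replicate 1 (0.0614, 0.109 and 0.185), and that of TDG also without control replicate 3 (0.0825).

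Outside the interferon and MHC lists, GRHPR, SNORA7B, CTSL1 and HMOX1 were higher in all 6 libraries and called by the mean of both effects. GRHPR, an enzyme that reduces glyoxylate and hydroxypyruvate, was at 46.5, 55.2 and 54.6 RPM in control, 75.0, 97.1 and 62.9 with siRNA 1, and 92.4, 83.2 and 59.2 with siRNA 2. Replicate 3 was the lowest library of each PVRL4 siRNA, and the siRNAs differed by -0.0037 (interval -0.28 to 0.27). GRHPR rose by 0.56 (limma adjusted p = 0.0215), a call lost without control replicate 1 (0.438), control replicate 2 (0.177) or siRNA 2 replicate 2 (0.0512). SNORA7B, a small nucleolar RNA of the H/ACA class, was at 5.82, 6.92 and 10.8 RPM in control, 13.8, 13.8 and 12.4 with siRNA 1, and 13.7, 13.3 and 16.9 with siRNA 2. Every pooled library stood above control, and control replicate 3 came nearest to them. SNORA7B rose by 0.79 (adjusted p = 0.00967), a call lost without control replicate 1 (0.257) or 2 (0.0747). Small nucleolar RNA genes lie within longer transcripts, and the amplicon cannot tell them apart. CTSL1, the lysosomal protease cathepsin L, rose by 0.36 from 73.8 to 83.3 RPM in control to 88.5 to 115 RPM in the pool (adjusted p = 0.0289). It lost the call without any 1 control library, siRNA 1 replicate 2 or 3, or siRNA 2 replicate 1 (0.0594 to 0.345).

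HMOX1, the heme-degrading enzyme induced by oxidative stress, was higher with siRNA 2 than with siRNA 1. It was at 31.7, 30.9 and 27.2 RPM in control, 49.5, 33.5 and 37.3 with siRNA 1, and 65.9, 64.4 and 46.7 with siRNA 2. All 6 libraries lay above control, siRNA 1 replicate 2 by the least. HMOX1 rose by 0.67 (limma adjusted p = 0.00362; 0.147 without control replicate 1), and the siRNAs differed by 0.55 (adjusted p = 0.00725). Of 22 tested NRF2 and oxidative stress genes it was the single one called, while 2 had no overlap in the higher direction and 2 a pooled unadjusted p under 0.05, beside 1.04% and 2.24% of all genes. NQO1, a quinone reductase of this list, had a pooled change of 0.21 (adjusted p = 0.304 by the mean contrast).

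For some genes the 2 siRNAs gave changes of opposite sign. By a fixed size of at least 0.3 each way, with a called siRNA difference and a mean of at least 10 RPM, there were 22 such genes: 2 higher and 20 lower with siRNA 2 than with siRNA 1. Against control, both changes passed for 2 of the 22, KLF11 and MT2A, 1 change for 5 and neither for 15. KLF11, a Krüppel-like transcription factor, was at 75.5, 75.6 and 79.5 RPM in control, 50.3, 51.2 and 52.2 with siRNA 1, and 100.03, 95.5 and 110.1 with siRNA 2. Its 3 groups lay wide apart with little spread in each. The pooled change of KLF11 was -0.088 (interval -0.67 to 0.49), from -0.58 with siRNA 1 and 0.40 with siRNA 2, and the siRNA difference was 0.98 (limma adjusted p = 3.72e-06). LMO1, a LIM-domain transcription cofactor, had a pooled change of 0.025 from -0.39 with siRNA 1 and 0.44 with siRNA 2 (adjusted p = 0.120 and 0.0452), and its siRNA 1 libraries overlapped control. MT2A, a metal-binding metallothionein, was at 671, 578 and 510 RPM in control, 1086, 806 and 661 with siRNA 1, and 442, 407 and 287 with siRNA 2. Within each group replicate 1 was the highest MT2A library and replicate 3 the lowest, and its close relatives may share reads. The pooled change of MT2A was -0.065, from 0.52 and -0.64. The sign of each of these 3 pooled changes turned when single libraries were left out.

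STAT2, ZNFX1 and TMPRSS2 had a mean above control with siRNA 1 and below it with siRNA 2, and for each of them 1 of the 2 changes passed. STAT2, of the interferon transcription factor, was at 28.1, 34.7 and 30.4 RPM in control, 111, 41.5 and 71.7 with siRNA 1, and 22.6, 24.1 and 21.4 with siRNA 2. No 2 of the groups overlapped. The pooled change of STAT2 was 0.35 (interval -0.66 to 1.37), with 1.14 for siRNA 1 and -0.43 for siRNA 2 (limma adjusted p = 0.00686 and 0.329). With 1 library left out it ran from 0.0038, without siRNA 1 replicate 1, and 0.12, without siRNA 1 replicate 3 or control replicate 1, to 0.62, without siRNA 2 replicate 1. ZNFX1, a helicase-like sensor of viral RNA, was at 69.4, 81.9 and 71.1 RPM in control, 319, 118 and 145 with siRNA 1, and 34.5, 53.2 and 42.0 with siRNA 2. Its change passed with siRNA 1 and not with siRNA 2 (adjusted p = 0.00863 and 0.0922). TMPRSS2, a membrane serine protease, had a pooled change of -0.24 from 0.35 and -0.83 (adjusted p = 0.276 and 0.00159). It was -0.026 without siRNA 2 replicate 1 and -0.45 without siRNA 1 replicate 1. The siRNA differences were -1.57 for STAT2, -2.02 for ZNFX1 and -1.18 for TMPRSS2.

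Of the nectin family, PVRL2 was called beside PVRL4. Of 7 tested nectins, nectin-like molecules and afadin, 0 rose and 2 fell by the mean of both effects, PVRL4 and PVRL2 (NECTIN2). PVRL2, also a nectin and a ligand of lymphocyte receptors, was at 32.5, 36.5 and 35.7 RPM in control, 37.9, 34.6 and 33.9 with siRNA 1, and 13.6, 16.7 and 10.9 with siRNA 2. The siRNA 1 libraries overlapped control, and the siRNA 2 libraries lay far below. Its pooled change was -0.64 (interval -1.44 to 0.16), and the siRNAs differed by -1.33 (limma adjusted p = 8.04e-06). The PVRL2 call was lost without control replicate 1 (0.0719) or 3 (0.127). MLLT4 (AFDN), which encodes afadin, had a pooled change of -0.15 (interval -0.46 to 0.15). The median of the list was -0.086, beside -0.0047 over all genes. Of 21 adherens and tight junction genes 0 rose and 0 fell, 0 had an unadjusted pooled p under 0.05, and the median was -0.0065. F11R, a tight junction adhesion molecule, had a change of -0.19 (interval -0.40 to 0.02).

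Receptor and AP-1 genes gave few calls in the pooled libraries. Of 29 ERBB and PI3K-AKT-mTOR genes 1 rose and 0 fell, with a median of -0.025. The one was PHLPP2, a phosphatase that acts on AKT, at 73.5 to 86.7 RPM in control and 77.5 to 127 RPM in the pool (0.40; limma adjusted p = 0.0471). PHLPP2 lost its call with 7 of the 9 libraries left out, the exceptions being siRNA 1 replicate 1 and siRNA 2 replicate 3 (0.0614 to 0.365). EGFR had a pooled change of -0.18 (interval -0.38 to 0.03). Of 10 FOS, JUN and ATF genes 0 were called and 1 had an unadjusted pooled p under 0.05, ATF3 (0.40; adjusted p = 0.226 by the mean contrast). Among 19 immediate early and ERK feedback genes 1 rose and 0 fell, and 11 differed between the siRNAs, beside 9.33% of all genes, with medians of 0.20 for siRNA 1 and -0.31 for siRNA 2. The gene that rose was the phosphatase DUSP1, at 30.1, 28.3 and 22.7 RPM in control, 75.3, 40.1 and 33.6 with siRNA 1, and 39.3, 43.1 and 25.4 with siRNA 2. The lowest DUSP1 library of the pool, siRNA 2 replicate 3, lay within the control range. Its change was 0.58 (adjusted p = 0.0466), a call lost without any 1 control library, siRNA 1 replicate 3 or siRNA 2 replicate 2 (0.0781 to 0.495).

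Cell cycle, death and RNA silencing genes were not called, with 1 exception. Of 32 mitosis genes 0 rose and 0 fell, 26 had a negative pooled change and the median was -0.050, from -0.15 with siRNA 1 and 0.048 with siRNA 2. Over all genes tested 5746 of 11158 pooled changes were negative. The checkpoint gene BUB3 had a pooled change of -0.29 (interval -0.54 to -0.04) and was not called (limma adjusted p = 0.124 by the mean contrast). Of 34 S phase genes 0 were called, with 2 lower at an unadjusted pooled p under 0.05, MCM10 (-0.23) and MCM3 (-0.28), and a median of -0.018. Among 17 p53 targets 0 were called. CDKN1A, the p21 cell cycle inhibitor, had a change of 0.31 and MDM2, the p53 ubiquitin ligase, of -0.32 (adjusted p = 0.273 and 0.0620). Of 19 BCL2 family and caspase genes 0 rose and 1 fell, the survival gene BCL2L1. It was at 213, 222 and 189 RPM in control, 165, 181 and 167 with siRNA 1, and 173, 170 and 145 with siRNA 2. No pooled library of BCL2L1 reached the control range, and the change was -0.32 (adjusted p = 0.0340). It lost the call with 7 of the 9 libraries left out, the exceptions being siRNA 2 replicates 1 and 3 (0.0515 to 0.345). Of 15 genes of the RNA silencing machinery 0 were called and 0 had an unadjusted pooled p under 0.05. DICER1, which cuts double-stranded RNA, had a change of -0.23 (interval -0.48 to 0.03).

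Among stress, lipid and luminal genes HSP90B1, CRYAB and GRHL1 were called, each with the larger change under siRNA 2. Of 21 genes of ER chaperones and the unfolded protein response 0 rose and 1 fell, HSP90B1, the ER-resident HSP90. HSP90B1 was at 1997, 2131 and 2097 RPM in control, 1909, 2109 and 2004 with siRNA 1, and 1068, 1175 and 1392 with siRNA 2. Its siRNA 1 libraries overlapped control. The pooled change was -0.42 (limma adjusted p = 0.00942 by the mean contrast), and the call was lost without any 1 control library (0.0558 to 0.212). Of 22 cholesterol synthesis genes 0 were called, and the median was -0.061, from 0.013 and -0.13. INSIG1, the partner of the sterol sensor, had a pooled change of -0.41 (interval -0.73 to -0.09). Of 19 cytosolic and mitochondrial chaperones 1 rose and 0 fell, with 3 higher at an unadjusted pooled p under 0.05: DNAJA1 (0.27), STIP1 (0.20) and HSPA1B (0.35). The gene that rose was CRYAB, a small heat shock protein, named after its values were seen. CRYAB was at 4.87, 6.63 and 8.08 RPM in control, 4.54, 6.29 and 9.15 with siRNA 1, and 15.5, 26.9 and 17.9 with siRNA 2, so that siRNA 1 overlapped control and siRNA 2 lay above. Its adjusted p was 0.0239 by the mean contrast, and the call was lost without any 1 control library, siRNA 1 replicate 3 or siRNA 2 replicate 1 or 2 (0.0541 to 0.255). HSPA1B has a near-identical copy, HSPA1A, which may share its reads. Of 27 luminal epithelial genes 0 rose and 1 fell, the transcription factor GRHL1, at -0.37 pooled, -0.089 with siRNA 1 and -0.64 with siRNA 2 (adjusted p = 0.0466 by the mean contrast). GRHL1 lost the call without any 1 control library, siRNA 1 replicate 2 or 3, or siRNA 2 replicate 1 (0.0898 to 0.381). SPDEF and KRT19, a luminal transcription factor and a keratin, had no overlap in the lower direction, with changes of -0.16 and -0.18, and were not called.

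**Figure D4:**
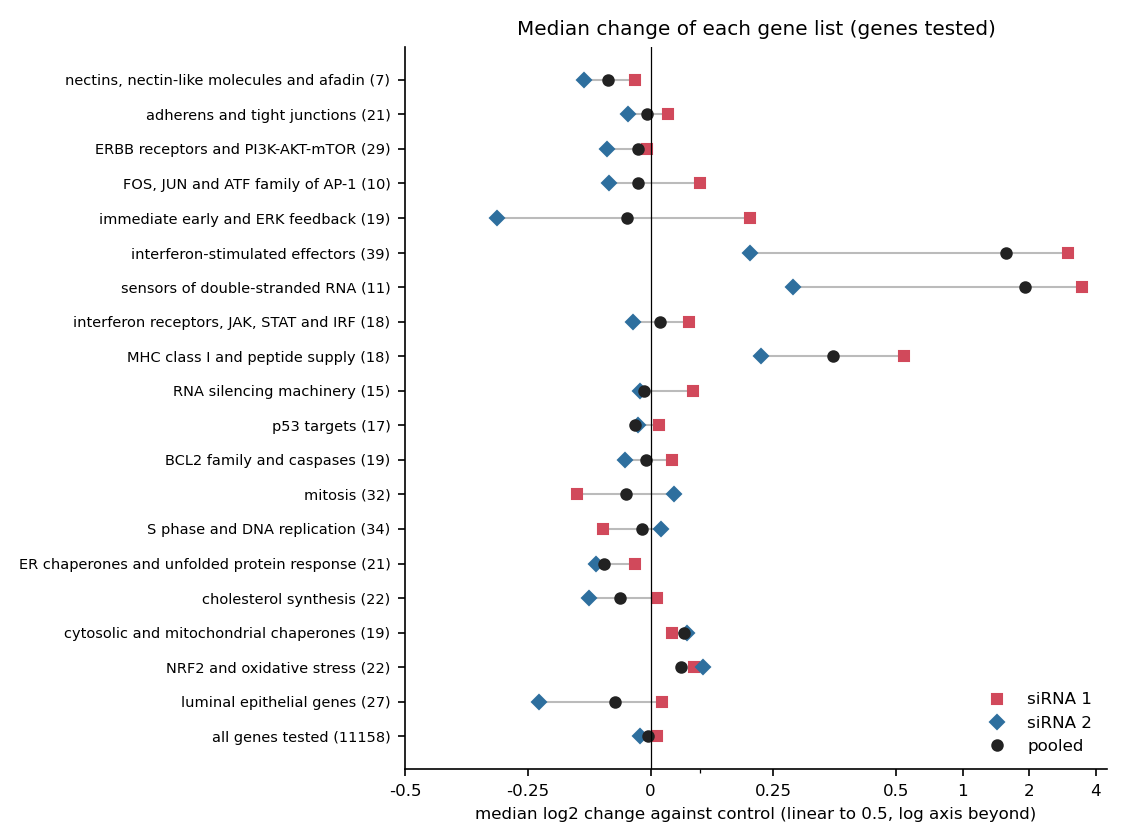
Median log2 change over the tested genes of 19 lists (number in brackets) and of all genes, for siRNA 1 (red square), siRNA 2 (blue diamond) and the pooled libraries (black circle), on an axis that is linear to 0.5 and logarithmic beyond. Interferon effectors and double-stranded RNA sensors have the highest pooled medians (1.56 and 1.91 over all tested members, including 22 and 3 with a control mean under 1 RPM), with siRNA 2 at 0.20 and 0.29. The MHC genes follow at 0.37, including 2 of 18 with a control mean under 1 RPM.

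The libraries held 10017130 to 10707777 reads each, and 13758 to 13996 genes had a read. Breast line markers (KRT8, KRT18, KRT19, EPCAM and ERBB2 among 10) summed to 13552 to 14164 RPM in control, 13080 to 13730 RPM with siRNA 1 and 11325 to 12136 RPM with siRNA 2. Markers of other cells were near the floor of 3 reads, except for single genes. Leukocyte markers summed to 7.16 to 10.8, 4.54 to 7.65 and 6.11 to 11.8 RPM in control, siRNA 1 and siRNA 2, nearly all of it CSF1R, with PTPRC, CD2, MS4A1 and FCER1G at 0 in all libraries. Fibroblast markers (mostly COL1A1) summed to 4.29 to 8.03 RPM and endothelial ones (CDH5 and ESAM) to 9.25 to 18.7 RPM, and their groups overlapped. In bulk libraries fewer cells that express a gene and less of its RNA per cell cannot be told apart.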

How the data were processed

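Gene expression was measured in 9 SKBR3 libraries. Per the labels' protocols, the authors used 100 ng of RNA for each and an Ion AmpliSeq kit that covers the transcriptome with 1 amplicon per gene, without molecular identifiers. A paralog or overlapping transcript that shares an amplicon cannot be told apart. The authors deposited RPM values for 20812 genes. The submitters' processing notes name hg19 as the build. Aligner and counter are not given in the sources used here. RPM steps gave back whole reads for 100% of values (tolerance 0.1 read). The value of 1 read was 0.0934 to 0.0998 RPM by library. The floor of 3 reads, which covers counting error only, was 0.280 to 0.299 RPM.

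limma 3.58.1 (R 4.3.3, trended prior) was fitted to log2(RPM + 1), a pseudocount of 1 that understates changes of low genes, for genes that averaged 1 RPM or more over all 9 libraries, a filter that a gene below it in control passes only if it is higher with a PVRL4 siRNA. Two-sided p-values were adjusted over all genes by Benjamini-Hochberg, with a threshold of 0.05. The replicate number, from the sample titles, was a block in each fit unless said otherwise: in the 9 pairs of libraries that share one, deviations from group means had correlations of 0.252 to 0.417, and in the other 18 pairs of -0.340 to -0.0275. The 3-group fit, its mean of both effects and the siRNA difference stand beside the pooled fit. edgeR 4.0.16 and DESeq2 1.42.0 were run on the recovered reads. The fits were tested on simulated data in which chosen genes changed by known, equal amounts with both siRNAs. Genes that differ between the siRNAs were not simulated.

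Named genes follow a rule: PVRL4; up to 12 pooled calls in each direction (none passed); the 6 largest uncalled pooled changes and up to 4 genes in each direction with opposite siRNA effects, both with a mean of at least 10 RPM; and up to 3 members of each list by pooled adjusted p. For the mean of both effects, a rule added after the pooled fit was seen takes up to 8 genes in each direction without overlap or a called siRNA difference, and up to 3 others by adjusted p. A few genes that these rules take are not reported here. The members and lists were chosen with earlier results of these data known. Alternatives were pseudocounts, filters, scalings, variance priors, tools and left-out libraries. RefSeq promoters and names were matched by gene ID (18191 IDs matched). Gene coordinates are not printed, since no hg19 annotation was used here.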

Additional observations from a re-analysis of the deposited data

Results flagged for a closer look

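A group of 6 libraries was screened for a library far from the others (Dixon's test on RPM at its 95% critical value). Chance alone flags about 1 in 20 groups if the 6 values come from 1 normal population. These 6 libraries come from 2 siRNAs that differed in many genes, so that rate need not hold here. In 8 genes the library far from the others was siRNA 1 replicate 1: IFIT1 at 587 RPM, MX1 at 703 RPM, IFIT2 at 206 RPM, GBP1 at 37.9 RPM, TAP1 at 274 RPM, IRF1 at 40.7 RPM, ATF3 at 13.4 RPM and DUSP1 at 75.3 RPM. IFIT1, MX1, IFIT2, GBP1, TAP1 and IRF1 are interferon-stimulated, and they were highest together in this library, which also held the highest sum over the interferon effectors (8216 RPM). ATF3 and DUSP1 are immediate early genes. In SNORA7B it was siRNA 2 replicate 3, at 16.9 RPM. Without siRNA 1 replicate 1 the pooled fit called 0 genes in each direction, as with all 9 libraries.

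The effects of the 2 siRNAs against the shared control differed (limma, siRNA 2 minus siRNA 1 with the replicate block, adjusted p under 0.05) in 37 of the genes described one by one. Over all genes tested the share was 9.33%. Some of the 37 were named because this difference was called, so their number cannot be set against that share. The ranking that follows holds among these named genes only. Most of the largest differences were in interferon genes, with less RNA under siRNA 2: IFIT1 (-6.17), MX1 (-6.08), OAS2 (-5.46), ISG15 (-5.29), IFIT2 (-4.81), OAS1 (-4.62), IFI6 (-4.23), IRF7 (-3.74), OAS3 (-3.61), IRF9 (-3.43), DHX58 (-2.89), BST2 (-2.87), ZNFX1 (-2.02), EIF2AK2 (-1.58), STAT2 (-1.57), IRF1 (-0.95), TAP1 (-0.92) and HLA-E (-0.38). PVRL4 itself was lower with siRNA 2 (-0.60). Other genes lower with siRNA 2 were PVRL2 (-1.33), TMPRSS2 (-1.18), MT2A (-1.16), the ER chaperone gene HSP90B1 (-0.74), GRHL1 (-0.55), the ER degradation gene EDEM1 (-0.53), CBFB (-0.50), TDG (-0.48), MDM2 (-0.40), the apoptosis inhibitor gene BIRC2 (-0.39) and F11R (-0.27). Higher with siRNA 2 were CRYAB (1.47), KLF11 (0.98), JAK1 (0.89), LMO1 (0.83), TUG1 (0.56), HMOX1 (0.55) and PHLPP2 (0.38).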

How the results depend on the processing

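In the pooled fit limma called 0 genes in each direction at pseudocounts of 0.1 and 5, without a filter and at 5 RPM, with median-of-ratios and TMM scaling, without the replicate block, without a trend, with a robust prior and with each library or replicate number left out, and edgeR called 0 as well. DESeq2 called 8 higher and 7 lower, with PVRL4 at -1.30 (adjusted p = 0.00821). The mean of both siRNA effects called 55 and 69 with the replicate block and 12 and 5 without it, with PVRL4 at -1.14 (adjusted p = 0.000849 and 0.0134). That mean contrast, whose alternatives were added after seeing the data, called 23 higher at a pseudocount of 5, 8 higher with a robust prior, and 0 in each direction without a filter or without a trend (614 and 880, and 477 and 713, at an unadjusted p under 0.05). In both of the last settings PVRL4 missed the threshold at -1.14 (adjusted p = 0.0583 and 0.0819). With 1 library left out it called 7 to 123 higher and 2 to 89 lower, and with a replicate number left out 21 to 84 and 16 to 36. The lowest count in each direction came without control replicate 1 (7 and 2). Counts also moved by over 1.5 times without control replicate 3 (20 and 11), siRNA 1 replicate 3 (33 and 37) and siRNA 2 replicate 2 (28 and 41), without siRNA 1 replicate 2 (123 higher) and without control replicate 2 (32 lower). The cause was not tested. Pooled changes near 0 turned sign: KLF11 with edgeR (0.0072), DESeq2 (0.0081) or 1 siRNA 1 library left out (-0.23 to 0.055 over all left-out libraries), MT2A with edgeR (0.050), DESeq2 (0.048) or with libraries left out (-0.25 to 0.11), LMO1 with libraries left out (-0.14 to 0.17), and ZNFX1 without siRNA 1 replicate 1 or 3 (-0.24 to 0.63 over all). Of the other values, including single genes and list medians, 2294 counted as unchanged, 150 lost and 32 gained a call. A single gene counted as unchanged if it kept its direction and side of the threshold. A list median did so if it moved by less than the SD of its members' changes, and its sign was not checked. Scaling moved the median change of all genes by under 0.1. Depth limits IFIT1 and IFIT2, which control libraries hold at no more than 3 reads. It also limits MX1, OAS2 and DHX58, with control means of 0.353, 0.224 and 0.224 RPM.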
